A study of Mus musculus with 6 samples.

Results

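Malat1 and Neat1 are neighbouring genes for long noncoding RNAs on mouse chromosome 19. Their records were all entries of the STAT3, SOX4, GABPa and ATAC peak tables that name either gene as the nearest, with repeated ATAC entries counted once per distinct interval. There were 23 such intervals of 149791 in the 4 tables, 9 at Malat1 and 14 at Neat1. STAT3 contributed 2, SOX4 3, GABPa 1 and ATAC 17. The pair was selected on its peaks in these same tables, so the counts below are a description without a test.

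Both genes give rise to abundant RNAs that stay in the nucleus. Malat1 RNA gathers in nuclear speckles, bodies rich in splicing factors, and its 3′ end is made by RNase P cleavage, which also releases a small tRNA-like RNA. Neat1 is made as a short and a long transcript from a shared start, and the long one is the scaffold of paraspeckles, bodies that hold RNA-binding proteins. STAT3 is a cytokine-activated factor, SOX4 an HMG-box factor of stem and progenitor cells, and GABPa the DNA-binding ETS subunit of GABP.

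The chromatin came from EML cells, a cultured mouse blood precursor line labelled with the strain B6D2F1, sorted into lin-CD34+ and lin-CD34- cells with no further treatment or genotype named. STAT3 and SOX4 ChIP-seq and ATAC-seq were made from lin-CD34+ cells, and GABPa ChIP-seq from lin-CD34- cells, so antibody and population cannot be told apart for GABPa. The labels also list 1 control library for each population, which was not used here. Each group was 1 library without replicates, and no difference between libraries could be set against a spread. ATAC intervals lay within 1000 bp of the transcription start site (TSS) of 12 of 12 blood precursor markers, Cd34, Kit and Gata2 among them, and of 6 of 12 markers of other tissues. Of all 20691 genes named in the peak lists, 68.2% had such an interval. Within 5000 bp of the TSS both marker lists had 12 of 12, so they differed in the 1000 bp window and not in the wider one.

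Malat1 (gene ID 72289) spans positions 5795690 to 5802672 of chromosome 19 on mm10, 6983 bp as 1 exon on the minus strand. Neat1 (gene ID 66961) spans 5824708 to 5845480, 20773 bp, on the same strand, with its 3′ end 22035 bp upstream of the Malat1 start. The Malat1 promoter is shown because the ATAC interval and the SOX4 peak at the start of the gene both reach into it. It is the RefSeq sequence (GRCm38.p6, the assembly of mm10) at chr19:5802623-5802922, minus strand, with 250 bases before the start site and 50 from it onward. Capitals mark the 159 bases inside the ATAC interval, and the last 9 of them, CAGCTGAGC, also lie in the SOX4 peak.
Malat1 promoter: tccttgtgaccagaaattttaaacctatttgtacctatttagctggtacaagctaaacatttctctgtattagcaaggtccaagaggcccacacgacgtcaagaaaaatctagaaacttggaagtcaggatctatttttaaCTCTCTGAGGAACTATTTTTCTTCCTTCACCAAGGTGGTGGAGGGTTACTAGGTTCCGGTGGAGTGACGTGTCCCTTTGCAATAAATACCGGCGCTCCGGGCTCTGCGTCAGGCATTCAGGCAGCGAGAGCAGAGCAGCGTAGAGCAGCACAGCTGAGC

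The window holds 47% G and C, lower than the median of 53% over 32544 distinct RefSeq promoters of this length, and its open part holds 56.0%. Searched on both strands, it has no match to the STAT letters TTCNNNGAA, the SOX letters AACAAAG or their shorter form ACAAAG, or the ETS letters CCGGAAG. Of 32851 RefSeq promoters of this length, 8.3%, 5.85%, 18.7% and 8.86% hold these letters. The ETS core GGAA, which CCGGAAG contains, matches 4 times, beginning 131, 101, 88 and 56 bases before the start site, the last 3 in the open part. It is in 96% of promoters, and 46.3% hold at least 4 matches. The STAT3 peak lies farther upstream than this window, so its letters are not covered by the search. Of the 273 bp SOX4 peak only 9 bases lie in the window, so nearly all of its letters were not searched either.

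**Figure D1:**
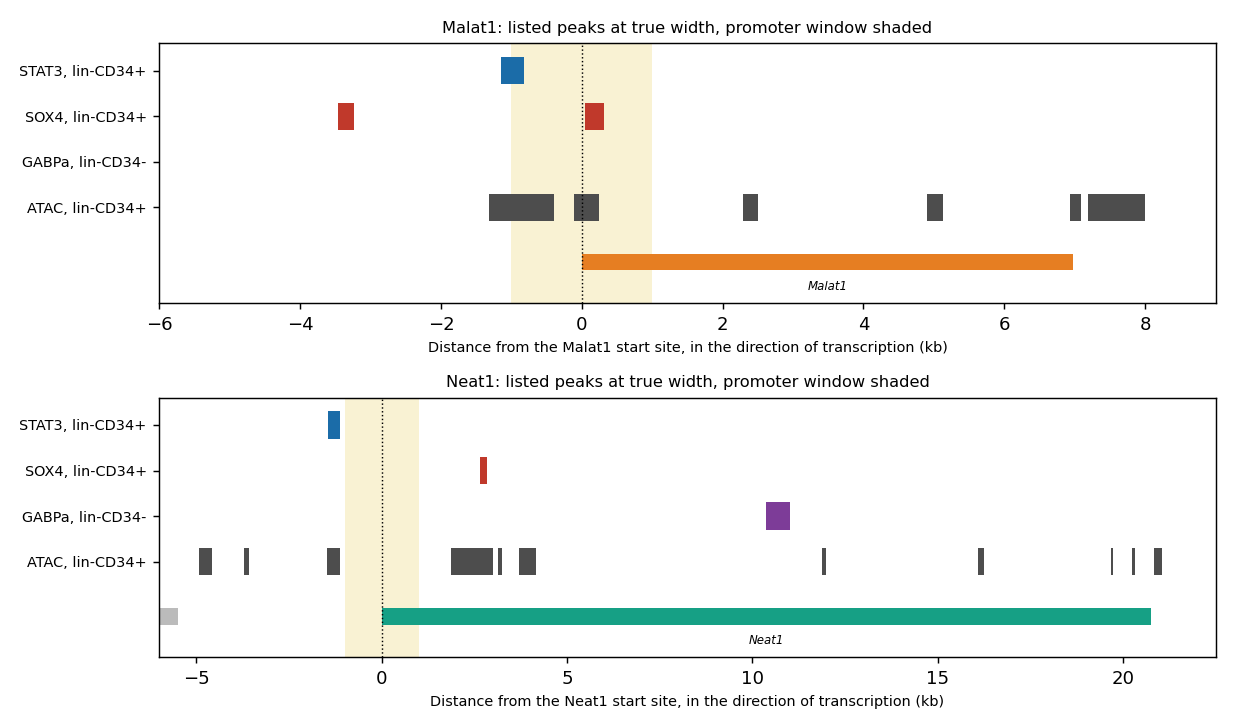
Listed STAT3, SOX4, GABPa and ATAC intervals at true width against distance from each start site in kb, in the direction of transcription, with the gene body as a coloured bar and the 1000 bp promoter window shaded. At both genes a STAT3 peak lies upstream and a SOX4 peak downstream of the start site, each in an ATAC interval, and the window of Neat1 holds no interval of any list.

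At Malat1, lin-CD34+ cells had a SOX4 peak just inside the start of the gene and a STAT3 peak farther upstream, each in a different ATAC interval. The STAT3 peak (5803488 to 5803817, 330 bp) was centred 981 bp upstream of the TSS, its nearest edge 816 bp away, with 33 tags, which are sequenced reads in the peak, against a list median of 30. The exact 95% Poisson interval of that count is 22.7 to 46.3. Such intervals cover counting error only. Its score (−10 log10 p, as the peak caller gave it) was 119 (rank 234 of 885), and its fold over background was 33.7 (rank 61, tied with others at the same fold). Tags were thus middling in the list and the fold high. Among the 416 STAT3 peaks within 1000 bp of a TSS the median distance was 89 bp, and only 2 lay farther out than the Malat1 peak.

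SOX4 had 2 peaks at Malat1. The first (5802359 to 5802631, 273 bp) was centred at 176 bp inside the gene and began 41 bp after the start site, with 16 tags (9.15 to 26). Its score of 109 ranked 32 of 3016 and its fold was 21.8. Of the 163 SOX4 peaks that shared at least 1 bp with an ATAC interval, 5.4% of the list, only 2 had a higher score. The second (5805906 to 5806136, 231 bp) was centred 3350 bp upstream with 18 tags (10.7 to 28.4), more than 97.3% of SOX4 peaks. Its fold of 11.0 was higher than only 16% of the list, and it lay 1919 bp from the nearest ATAC interval. The pair of SOX4 peaks thus held similar numbers of tags, and only the one at the start of the gene was in open chromatin. The first had the higher score (109 against 83.1) but also the higher deposited false discovery rate (3.28% against 1.09%). Over the SOX4 list that rate ran from 0.92% to 4.92%.

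At Neat1 all 3 factors had a peak, none within 1000 bp of the TSS. At any listed distance 4.12% of genes had a STAT3 peak, 12.5% a SOX4 peak and 9.59% a GABPa peak. Of the 2630 noncoding RNA genes, by the deposited gene type, which includes microRNA genes, 2.47%, 9.16% and 7.6% did. The STAT3 peak (5846613 to 5846928, 316 bp) was centred 1290 bp upstream with 28 tags (18.6 to 40.5), a score of 97.9 and a fold of 19.8, which was below the STAT3 median of 22.3. With the Malat1 peak at 981 bp, these 2 stood on either side of the 1000 bp limit for a promoter peak. The SOX4 peak (5842636 to 5842835, 200 bp) was centred 2743 bp inside the gene with 12 tags (6.2 to 21), a score of 86.9 (rank 291) and a fold of 16.3. The GABPa peak of lin-CD34- cells (5834450 to 5835113, 664 bp) was centred 10697 bp inside the long transcript, beyond the short one, with 16 tags (9.15 to 26), a score of 160 and a fold of 11.3. That fold was higher than 28.5% of GABPa peaks, the tags higher than 57% and the score higher than 82.2%. No GABPa peak was named to Malat1.

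**Figure D2:**
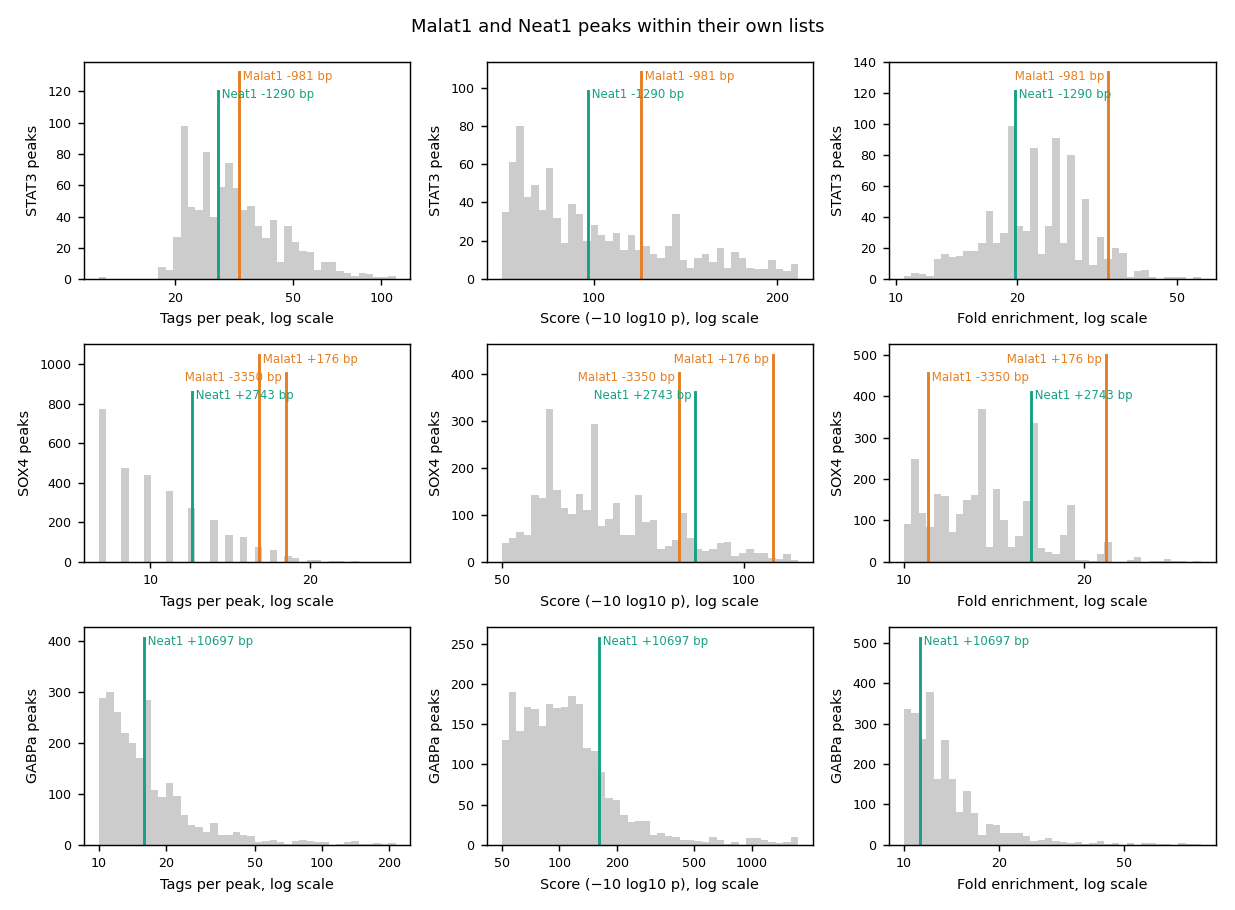
Distributions of tags, score and fold enrichment (log scales) over all peaks of each ChIP list in grey, with the peaks at Malat1 (orange) and Neat1 (green) as lines labelled by distance from the TSS. The SOX4 peak at the Malat1 start has a score near the top of its list (109). The GABPa peak at Neat1 has a fold in the lower part of its list (11.3) and a score in the upper part (160).

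Chromatin at the pair was open in 17 distinct intervals, 6 at Malat1 and 11 at Neat1. At Malat1 the widths ran from 151 to 914 bp and summed to 2668 bp, more than at 86.9% of the 20350 genes with an interval, where the median was 1064 bp. The interval at 5802428 to 5802781 (354 bp) covered the start site, and the widest one, at 5803074 to 5803987 (914 bp), lay just upstream and was wider than 97.7% of all ATAC intervals. An interval of 810 bp lay past the 3′ end of the gene, 204 bp beyond it, and 1 of 151 bp spanned that end. Only 2 intervals, of 221 and 218 bp, lay wholly within the gene. Open chromatin at Malat1 was thus widest at its start and past its end.

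At Neat1 the widths ran from 73 to 1133 bp and summed to 3175 bp, more than at 90.5% of genes. The widest, at 5842470 to 5843602, lay inside the gene before the annotated end of the short transcript and was wider than 99.1% of all ATAC intervals. It was entered 8 times in the deposited table, and 0.294% of intervals were entered at least 8 times. The meaning of a repeated entry is not stated, and wider intervals were entered more often, with a median of 113 bp for those entered once and 1353 bp for those entered 8 times. An interval of 453 bp and 1 of 114 bp followed near the end of the short transcript. The 5 intervals farther on, 1 of them just past the 3′ end of the long transcript, were 73 to 199 bp wide. Upstream of the start site lay 3 more, of 365, 148 and 335 bp, the last annotated to the end of Frmd8.

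No ATAC interval covered the Neat1 start site. The nearest edges were 1126 bp upstream and 1878 bp downstream of it. Of the 3596 genes with at least 11 intervals, 26% likewise lacked one within 1000 bp of the TSS, and of the 346 noncoding RNA genes among them 57.5%. A missing interval says only that none was listed there. Of the 12 other genes named within 100 kb on either side, 10 had an interval at the promoter, against 68.2% of all genes. For Pola2 that interval lay outside the 100 kb.

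The share of the gene body in ATAC intervals was alike in the pair, 10.5% of Malat1 and 10.2% of Neat1. The median was 3.58% over 19530 genes and 2.86% over 1718 lncRNA genes of the RefSeq table. Only genes on the autosomes or X with an ATAC interval named to them were compared. Malat1 was above 89.1% of all genes compared and 87% of the lncRNA genes, and Neat1 above 88.6% and 86.7%. Among the 7475 genes of 5 to 25 kb, where the median was 5.08%, they were above 88.7% and 87.8%.

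**Figure D3:**
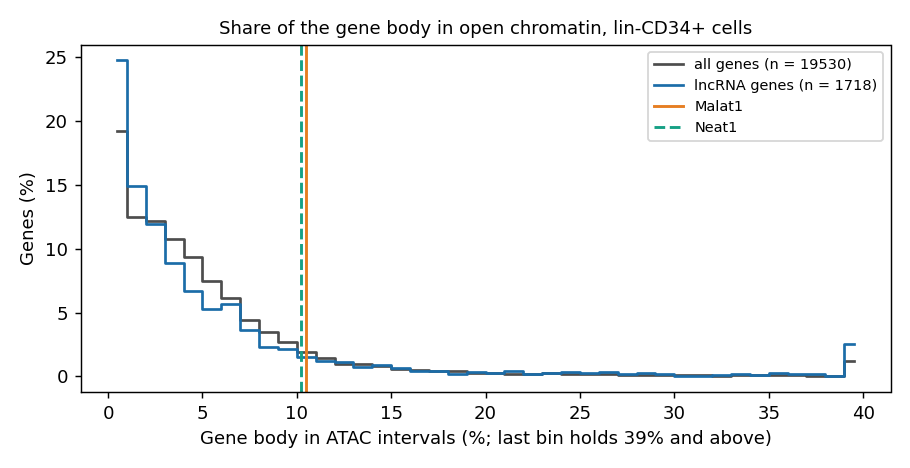
Share of genes against the percentage of the gene body in lin-CD34+ ATAC intervals, for all genes (grey) and lncRNA genes (blue), with Malat1 (10.5%) and Neat1 (10.2%) as vertical lines. Only genes with a named ATAC interval are included. Both lines fall in the upper tail, well right of the medians of 3.58% and 2.86%.

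Of the 6 ChIP peaks at the pair, 4 overlapped an ATAC interval. Each STAT3 peak lay whole within one, and filled 86.6% of the interval upstream of Neat1 and 36.1% of the wider one upstream of Malat1. Over the STAT3 list 78.4% of peaks overlapped an ATAC interval. The SOX4 peak inside Neat1 lay whole within the 1133 bp interval, and that at the Malat1 start shared 204 bp, 74.7% of its length, with the interval over the start site. Of all SOX4 peaks 5.4% overlapped an ATAC interval. The GABPa peak missed the nearest interval of lin-CD34+ cells by 855 bp. Over the GABPa list 16.8% of peaks overlapped one.

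SOX4 and STAT3 did not meet at the same bases in either gene. Their nearest edges were 857 bp apart at Malat1 and 3778 bp apart at Neat1. Promoter peaks of both factors were found at 11 genes, 0.0532% of the 20691, and Malat1 was 1 of 3 noncoding RNA genes among them, with C030013C21Rik and Gm29685, 0.114% of such genes. Within 500 bp of the TSS 2 genes had both, and Malat1 was not among them. STAT3 promoter peaks, whatever the other factor, were found at 1.98% of genes and SOX4 promoter peaks at 0.764%. In 6 of the 11 the SOX4 and STAT3 peaks overlapped each other, and in the other 5, Malat1 among them, they were 283 to 1622 bp apart. Both peaks were in open chromatin at Malat1, Srsf1, a splicing factor gene, and Plpp1, a lipid phosphatase gene. The Malat1 SOX4 peak had the highest score of the 11 save that at Rtfdc1 (109 at both genes after rounding).

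Within 5000 bp of the TSS, 51 genes had peaks of SOX4 and STAT3, 0.246% of genes. An open SOX4 and an open STAT3 peak were found at 6 of them, 0.029% of genes, among them Malat1, Neat1, Srsf1, Plpp1 and Zbtb7a, a zinc finger repressor gene. At the other 4 genes the open SOX4 and STAT3 peaks overlapped, whereas at Malat1 and Neat1 they stood apart. With at least 2 SOX4 peaks within 5000 bp Malat1 was 1 of 24 genes, 0.116%. Peaks of all 3 factors at any listed distance were named to 55 genes, 0.266%. Neat1 was 1 of 4 noncoding RNA genes there, 0.152% of such genes. Of the 54 with a known length only 9 were shorter, the median being 79.2 kb.

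**Figure D4:**
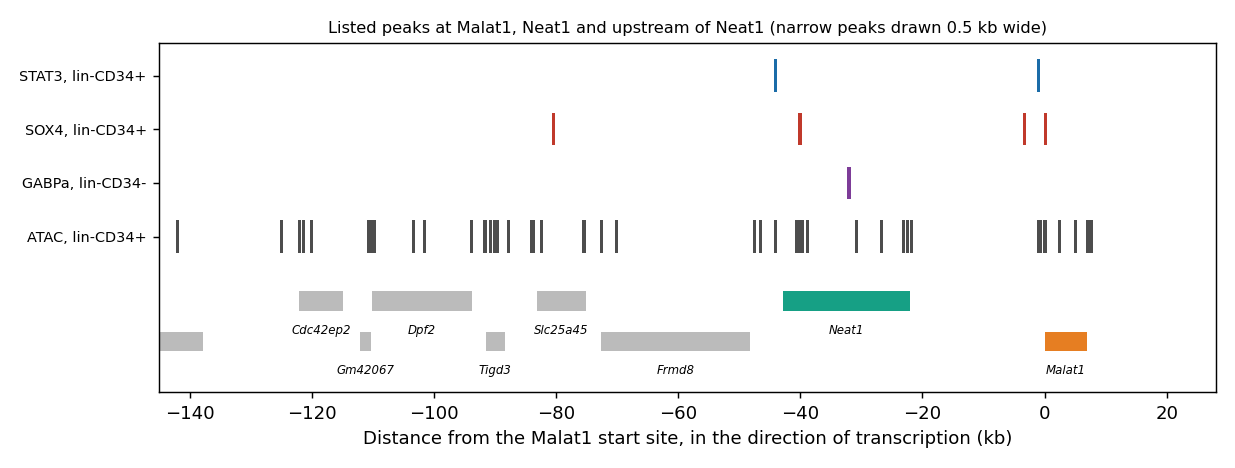
Intervals of the 4 lists at Malat1 and Neat1 and up to 100 kb upstream of Neat1 against distance from the Malat1 start site in kb, in the direction of transcription, with gene bodies as bars on alternating rows. Narrow intervals are drawn 0.5 kb wide, and both STAT3 peaks, the GABPa peak and 3 of the 4 SOX4 peaks in view are at Malat1 or Neat1.

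The listed ChIP peaks of the region were mostly at the pair, in lists without peaks more than 5000 bp upstream of a TSS. Within 100 kb on either side, 249.8 kb in all, the lists held 2 STAT3 peaks and 1 GABPa peak, all named to Malat1 or Neat1, and 5 SOX4 peaks, of which 3 were. Upstream of Neat1 a SOX4 peak with 9 tags lay in Slc25a45, a mitochondrial carrier gene, and overlapped no ATAC interval. Of the 60 ATAC intervals 43 were named to the 12 other genes, so chromatin was open across the region. Frmd8, the next gene upstream of Neat1, had an open promoter and no ChIP peak.

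The genes whose numbers of peaks in the 4 lists were most like those of Malat1 (1 STAT3, 2 SOX4, 0 GABPa, 6 ATAC) were Galk1, with the same numbers, then Aph1b, Etnk1, Rabep1 and Galc. For Neat1 (1, 1, 1 and 11) they were Yars and Prkaa2, with the same numbers, then Rasa1, Nubpl and Aacs. Likeness was the sum of absolute differences in log2(number + 1) over the 4 libraries, which ranged from 0 to 0.51 for these genes of Malat1 and from 0 to 0.13 for those of Neat1.

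Genes for proteins of the nuclear bodies that hold these RNAs carried more STAT3 than SOX4 or GABPa peaks within 1000 bp of the TSS. The order did not hold in wider windows. Within 5000 bp the paraspeckle list had 2 genes with a STAT3 and 2 with a GABPa peak. At any listed distance SOX4 peaks were at 6 speckle and 4 paraspeckle genes, 17.6% and 12.9%, against 12.5% of all genes. STAT3 peaks were at 4 and 2, 11.8% and 6.45%, against 4.12% of all genes. Several of the listed genes are splicing factor genes already known to carry STAT3 peaks in these data, so the counts are not independent of earlier results. Among 34 nuclear speckle protein genes STAT3 had promoter peaks at 4 (11.8%, exact 95% interval 3.3 to 27.5): Srsf1 with 58 tags, the splicing coactivator gene Srrm1 with 47, and the spliceosome genes Prpf6 with 30 and Prpf31 with 23. All 4 were in open chromatin. An ATAC interval lay at the promoter of 94.1% of speckle and 96.8% of paraspeckle genes, against 68.2% of all genes. SOX4 had 1 promoter peak in the speckle list, at Srsf1 with 10 tags. GABPa had 1, at Snrnp70, a U1 particle protein gene, with 18 tags and outside lin-CD34+ open chromatin. Over all genes the shares with a promoter peak were 1.98% for STAT3, 0.764% for SOX4 and 1.54% for GABPa. The share was not highest in the speckle list: STAT3 also had promoter peaks at 2 of the 12 blood precursor markers (16.7%, 2.09 to 48.4), among them the cytokine receptor gene Kit with 37 tags.

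Among 31 paraspeckle protein genes STAT3 had promoter peaks at 2 (6.45%, 0.791 to 21.4), the RNA-binding protein genes Hnrnph1 with 38 tags and Dazap1 with 32. The core paraspeckle genes Nono, Sfpq and Pspc1 had none, and neither SOX4 nor GABPa had a promoter peak in this list (0 of 31, which allows up to 11.2% by the exact interval). The 16 genes of Malat1 3′ end processing and RNA modification held 1 factor promoter peak, of GABPa at Mettl14, a subunit of the m6A methyltransferase. That is 6.25% (0.158 to 30.2), against 1.54% of all genes. The Mettl14 peak had 91 tags and a fold of 76.6. At any listed distance SOX4 peaks were at 4 of the 16 (25%, against 12.5% of all genes). GABPa peaks were at 2 (12.5%, against 9.59%) and STAT3 peaks at none.

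Among 30 other long noncoding RNA and snoRNA host genes, STAT3 had no peak at any listed distance, against 4.12% of all genes and 2.47% of noncoding RNA genes. At promoters the share of noncoding RNA genes was 0.798% for STAT3, 0.798% for SOX4 and 0.684% for GABPa, so a count of 0 in 30 is near the background. SOX4 had none at a promoter and 3 farther away, at 2900097C17Rik, Epb41l4aos and Sox2ot, which is 10% against 12.5% of all genes and 9.16% of noncoding RNA genes at any listed distance. GABPa had promoter peaks at Snhg17 with 35 tags and at Sox2ot with 22, 6.67% (0.818 to 22.1) against 1.54% of all genes. The Sox2ot peak was outside lin-CD34+ open chromatin. At any listed distance GABPa peaks were at 4 of the 30 (13.3%), against 9.59% of all genes and 7.6% of noncoding RNA genes. Of these 30 genes 90% had an ATAC interval at the promoter, against 68.2% of all genes and 47.9% of noncoding RNA genes. The noncoding type as deposited also takes in microRNA genes, so it is not a set of like genes. The lists are short, so an absent peak does not show that a gene was avoided.

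**Figure D5:**
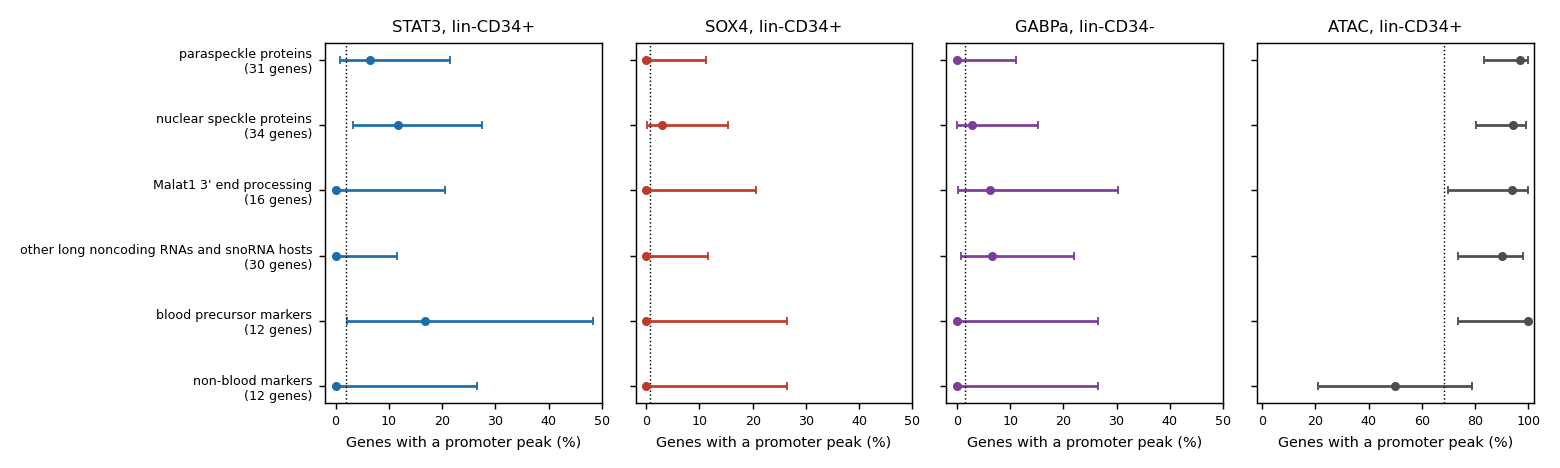
Percentage of genes in each list with a peak within 1000 bp of the TSS, by library, with exact 95% intervals that cover counting error only and the share over all 20691 genes as a dotted line. STAT3 reached 16.7% of blood precursor markers, 11.8% of nuclear speckle protein genes and 0% of other long noncoding RNA genes, with wide intervals that overlap.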

How the data were processed

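The authors deposited peak tables from 4 of 6 libraries (STAT3, SOX4 and GABPa ChIP-seq and ATAC-seq), each matched to its library by the factor in the table's name or by the deposit's own record. Cells for ChIP were fixed in 1% formaldehyde for 10 min, per the labels' protocols. Tools named in the submitters' processing notes, with no role given, are MACS2, HOMER, Bowtie2, Picard, SAMtools and CASAVA 1.7, and the build is mm10. Per the file headers, the deposited tag counts are whole reads per peak, the score is −10 log10 of a p-value, the fold is a ratio over background and the false discovery rate is a percent. These scores and folds are the authors' and were used only within a list. All listed peaks had a fold of at least 10 and lay no more than 5000 bp upstream of a TSS. Library depth and any shift of ATAC reads, which would move interval edges by a few bases, are not stated. Median tags per peak were 30 for STAT3, 10 for SOX4 and 14 for GABPa.

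Computed here were distinct ATAC intervals, overlaps of at least 1 bp, ranks, peaks within 1000 bp of a TSS by the deposited distance, coverage of RefSeq gene bodies, matches of letters, and exact Clopper-Pearson (shares) and Poisson (tags) 95% intervals. Named were both genes, their neighbours within 100 kb, genes with the same pair of promoter peaks, list members with a factor promoter peak, and the 5 genes most like each in peak numbers. Genes with open peaks of both factors, core paraspeckle genes, marker genes and genes with distant peaks were named after their values were seen. Some genes that these rules chose are not reported here. Members and lists were chosen with earlier results of these data known. Of 34 paraspeckle and 46 other noncoding genes, 3 and 16 had no row in any table and were left out. The Neat1 promoter sequence and the sequences of peaks were not used here. The tools were scipy 1.17.1, pandas 2.3.3, numpy 2.4.6 and matplotlib 3.10.9 under Python 3.11.15, and overlaps on simulated data matched a plain search for 500 of 500 intervals.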

Additional observations from a re-analysis of the deposited data

How the results depend on the processing

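The numbers of ChIP peaks at Malat1 and Neat1 were the same when taken by position (gene body and 5000 bp around it). Upstream, 5000 bp is also the limit of the lists themselves, so counts by position had little room to differ. The numbers of ChIP peaks were also the same among peaks above the median score of their list. The 6 and 11 ATAC intervals became 15 and 24 when repeated entries were counted, and stayed 6 and 11 by position and after merging. With 200 bp around each centre 3 ChIP peaks overlapped an ATAC interval, against 4 at full width, with 50% covered and by peak centre. The promoter window and the score limit both moved the genes with promoter peaks of SOX4 and STAT3, which numbered 11 within 1000 bp, 2 within 500 bp, 51 within 5000 bp and 2 above the median scores. Within 500 bp Malat1 was not among them (0), and it was 1 of the 2 above the median scores. Neat1 had 1 STAT3 peak within 5000 bp and none within 1000 bp. Of 24 list counts, 8 moved by over 1.5 times with a window of 5000 bp and 12 when any peak named to the gene was counted. Letters in peaks were not run. No paired analysis was possible because each group had 1 library. Tags per peak at the pair, 12 to 33, limit how firmly any of these peaks can be ranked.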

Other observations

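Counted in 100 kb bins, a division chosen after seeing the data, the bin from 5.8 to 5.9 Mb of chromosome 19 that holds both start sites had 7 ChIP peaks: 4 of SOX4, 2 of STAT3 and 1 of GABPa. The median over the 4767 bins with any ChIP peak was 1, the maximum was 7, and 2 bins reached it, 0.042%. Both start sites also shared a 50 kb bin with 6 peaks, and 5 of 5312 such bins had at least as many. With 200 kb bins 5 of 4058 had at least the 7 peaks of the pair's bin. Peaks of all 3 factors stood in 68 of the 100 kb bins, 1.43%. The next listed GABPa peak, named to the spliceosome gene Sart1, was 442840 bp from that in Neat1. Peaks more than 5000 bp upstream of a TSS are not in the lists, so this gap is one between listed peaks only. These counts describe a locus picked for its peaks and were not tested.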
